A study of Mus musculus with 8 samples.

Results

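Hematopoietic stem cells (HSCs) from the 2 ends of the size distribution were compared with HSCs of middle size. The comparison set 4 libraries, Small 1, Small 2, Large 1 and Large 2, against 2 libraries, Medium 1 and Medium 2, among 8 libraries in all. It asks which transcripts did not follow cell size in one direction, but were higher, or lower, in both the smallest and the largest cells. A gene was counted where Small and Large lay on the same side of Medium in replicate number 1 and again in replicate number 2. Of 16066 genes tested, 2373 were higher at both extremes (14.8% of tested genes) and 2625 were lower at both extremes (16.3%), which makes 4998 genes together (31.1%). In number 1 alone, 33.6% of tested genes had both extremes above Medium and 33.6% below, and in number 2 alone 29.9% and 31.9%. Part of these genes would meet the rule even if the sizes were interchangeable. Whether the counts exceed that part was not tested.

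All libraries came from C57BL/6J mouse bone marrow. Marrow was depleted of lineage-positive cells and stained for CD150 (encoded by Slamf1), CD48 (Cd48), Sca-1 (Ly6a) and CD117 (Kit), and each library was made from 10000 sorted cells in G0/1 phase. The Small and Large groups are the 10% smallest and the 10% largest cells by scatter, and Medium cells lay within 10% of the mean size. The All group, with 2 libraries, was not separated by size and enters here only as a reference level and in the estimate of spread. The labels of these 8 libraries name no treatment or genetic change. The labels number the libraries 1 and 2 but do not name separate animals. A p-value here therefore measures the spread between samples that may be technical repeats.

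HSCs maintain all blood lineages and mostly rest outside the cell cycle. Cell size rises with growth through the cell cycle and with the synthesis of ribosomes and other proteins, so genes tied to growth are usually described as following size in one direction. Scatter also differs between cell types: granulocyte precursors carry granules filled with enzymes such as myeloperoxidase, and they occur beside stem cells in marrow.

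Total counts ran from 13698362 to 16838448 per library. Levels are given as CPM, the count of a gene per 1e6 counts of its library, scaled by TMM, a method that sets the libraries to a common level for most genes; a count of 3 corresponds to 0.178 to 0.219 CPM before that scaling. CPM is a share of each library, so it does not give RNA per cell. In bulk samples, fewer cells of a type and less RNA per cell cannot be told apart. Differences are log2 CPM differences of the mean of Small and Large minus Medium, fitted by edgeR, with a standard error (SE). The libraries numbered 1 and 2 differed in cell type markers in every group. Summed over 30 HSC identity genes, CPM was 1027 to 2297 in the libraries numbered 1 and 2410 to 4539 in those numbered 2. Summed over 19 secondary and tertiary granule genes, it was 20468 to 64237 in number 1 and 5073 to 15788 in number 2.

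No gene passed edgeR's quasi-likelihood test at an adjusted p under 0.05 in either direction (percent called 0), and the smallest adjusted p was 1.00. Without adjustment, 559 genes (3.48%) had a p under 0.05, 170 of them higher at the extremes (1.06%) and 389 lower (2.42%). Same-numbered libraries deviated together from their group means, and when edgeR took the replicate number as a block these counts were 1028 higher (6.40%) and 1054 lower (6.56%). The smallest adjusted p with the block was 0.248, and again no gene passed. An exact permutation test of 4 against 2 libraries cannot give a two-sided p under 0.133 for a single gene. The genes described here are therefore described by their levels, and none of them passed the adjusted threshold.

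The side of Medium on which a gene lay carried over from one replicate number to the other more often than among all genes. The Small and Large differences within a number share a Medium library, but the 2 numbers share none. Of 5400 genes with Small 1 and Large 1 both above Medium 1, 2373 (43.9%) also had Small 2 and Large 2 above Medium 2, against 29.9% of all tested genes. The opposite pattern in number 2 was seen for 965 of the 5400 (17.9%). Of 5397 genes below Medium 1 at both extremes, 2625 (48.6%) were below Medium 2 at both, against 31.9% of all genes, and 1047 (19.4%) were above it at both. The 100 genes most above Medium in number 1 had a median difference of 1.43 there and 0.49 in number 2, where 75 kept their direction. The 100 most below had medians of -1.97 and -0.54, and 84 kept their direction. Across the 10860 genes with at least 5 CPM on average, Spearman's rho between the 2 numbers was 0.42 (0.29 over all 16066), as a description across genes, which are not independent replicates.

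**Figure D1:**
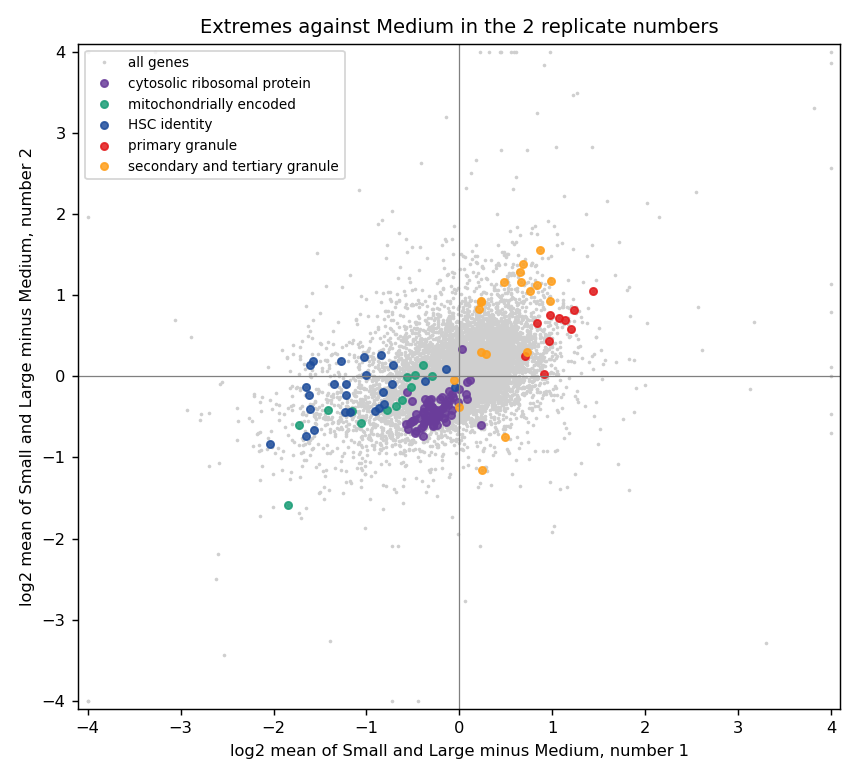
Each point is 1 gene with a mean of at least 5 CPM: the log2 difference of Small and Large from Medium in replicate number 1 (x axis) and number 2 (y axis), with values beyond 4 drawn at the edge. Ribosomal protein and mitochondrially encoded genes (purple, green) sit mostly at the lower left and granule genes (red, orange) mostly at the upper right, while HSC identity genes (blue) have a median over all 30 of -1.20 in number 1 and -0.16 in number 2.

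A stricter pattern asks that all 4 Small and Large libraries lie beyond both Medium libraries. It held for 1021 genes higher at the extremes (6.36% of tested genes) and 1298 lower (8.08%). If the 6 size-sorted libraries were interchangeable, the 15 ways of splitting them 4 against 2 would be equally likely. A gene would then show this pattern in 1 of 15 cases in each direction. The shares of 6.36% and 8.08% were near that, and whether the counts exceed it was not tested. The 12 genes named in each direction were drawn from these genes. When each of the 4 within-number differences had to reach 0.5 on the log2 scale, 236 genes were higher and 587 lower. The split between higher and lower depended on scaling. With CPM not scaled by TMM, 1647 genes were higher and 3347 lower, so that 33.0% of the same-side genes were higher in place of 47.5%; the median difference of all genes was then -0.10 in place of -0.01.

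The side of Medium differed with expression level. In the decile of genes with the lowest mean CPM (up to 0.692), 5.10% were higher at both extremes and 19.7% lower. In the highest decile (142 to 8121 CPM), 28.4% were higher and 8.59% lower. The median log2 difference was -0.57 in the lowest decile and 0.12 in the highest. The number of genes with at least 10 counts moved with this. It was 14971 and 14972 in the Medium libraries, against 13900 to 14553 in the 4 extreme libraries and 14479 and 14860 in All. The number with any count did not: it was 19529 and 19421 in Small, 20945 and 20596 in Medium, and 20510 and 20782 in Large. Large 2 was thus above Medium 2 by that measure. The part of detection in the difference was not tested.

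Noncoding genes were more often lower at the extremes than coding genes, both above and below 5 CPM, a split that does not match level within each side. Among genes of at least 5 CPM, 116 of 305 noncoding genes (38.0%) were lower at both extremes and 14 (4.59%) higher. Of 10270 protein coding genes at that level, 1303 (12.7%) were lower and 1978 (19.3%) higher. Below 5 CPM, 26.8% of 1585 noncoding and 20.5% of 2945 coding genes were lower. By type, 29.3% of 444 lincRNA genes, 27.2% of 519 antisense genes and 12 of 32 snoRNA genes (37.5%) were lower at both extremes. Antisense counts cannot be told apart from those of the sense partner here, since the sources used here do not say whether counting used strand. As a share of each library, lincRNA took 0.833% and 0.900% of the counts in Medium, 0.464% to 0.637% in the extremes, with 0.625% and 1.20% in All. The All 2 library was thus above both Medium libraries in lincRNA, as it was in Malat1, an abundant long noncoding RNA. The Malat1 levels, given below, are large beside these shares, and the shares without it were not computed.

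**Figure D2:**
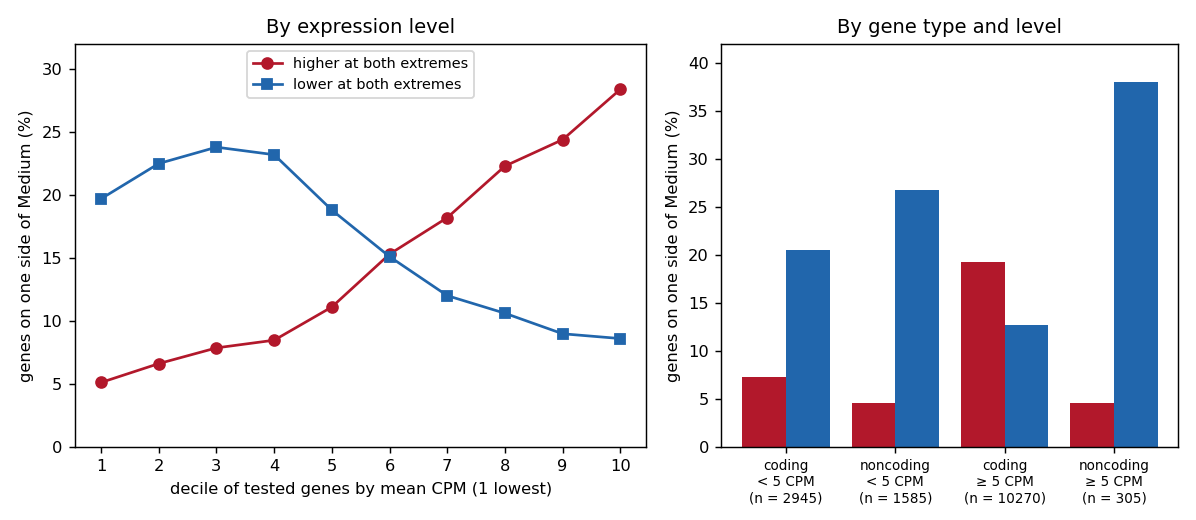
Left, the share of genes (y axis, %) higher (red) or lower (blue) at both extremes in each decile of tested genes by mean CPM (x axis); right, the same shares by gene type and level. The red line climbs from 5.10% to 28.4% and crosses the blue line at the sixth decile, and the tallest bar is the 38.0% of noncoding genes of at least 5 CPM that were lower.

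Transcript length showed the pattern at its 2 ends. Among genes of at least 5 CPM, 23.3% of the shortest decile (longest annotated transcript up to 1285 bases) and 19.8% of the longest decile (6646 bases or more) were lower at both extremes, against 8.76% to 12.5% in the third to the ninth decile. In the shortest decile the median difference was -0.43 in Small 2 and -0.11 in Small 1, and 0.13 and 0.01 in Large 1 and Large 2. By GC content, the share lower was largest in the lowest decile (GC up to 41.17%), at 21.0%, and was 9.59% in the ninth decile. These lengths and GC values are of the longest annotated transcript, not of the transcripts present in the cells.

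Most transcripts of cytosolic ribosomal proteins, the protein parts of the ribosome, were lower at both extremes. Of 76 genes measured, all tested, 47 lay below Medium in Small and Large in both numbers, against 16.3% of all genes, and none above. In 30 of them (39.5%, against 8.08% of all genes) all 4 extreme libraries were below both Medium libraries. The median difference was -0.34, against -0.01 for all genes. Without adjustment, 24 of the 76 were lower with a p under 0.05 in edgeR (2.42% of all genes), 59 with the replicate block (6.56%), and 0 after adjustment in either fit. Their summed CPM was 22597 and 19917 in Small 1 and Small 2, 30263 and 30174 in Medium 1 and Medium 2, 29424 and 26256 in Large 1 and Large 2, with 24967 and 24618 in All. The sum was thus lowest in Small, while Large 1 was close to Medium. The median difference from the Medium library of the same number was -0.48 in Small 1, -0.05 in Large 1, -0.66 in Small 2 and -0.20 in Large 2. The count with no overlap was limited by Large 1 and Medium 2: it rose to 69 of 76 without Large 1 (11.6% of all genes) and to 47 without Medium 2 (17.3%). Ribosomal protein genes have many near-identical pseudogenes, so reads shared with these were split by estimation and single values are uncertain.

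Rpl37a, a protein of the large subunit (chr1:72711290-72713813), had 292 and 266 CPM in Small, 486 and 457 in Medium, 386 and 354 in Large, with 339 and 326 in All. All 4 extreme libraries were below both Medium libraries, with Large between Small and Medium. The difference was -0.55 (SE 0.14). Rps20, of the small subunit, had 151 and 153 CPM in Small, 257 and 267 in Medium and 214 and 216 in Large, a difference of -0.54 (SE 0.15). Rplp1, of the stalk that contacts translation factors, had 197 and 163 CPM in Small, 341 and 325 in Medium and 307 and 254 in Large, a difference of -0.57 (SE 0.16). In all 3 genes the order of levels was Small, Large, Medium.

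Many ribosomal protein genes start transcription inside a run of pyrimidines, the 5' terminal oligopyrimidine tract, by which their mRNAs are regulated in translation. The promoters of Rpl27a and Rps27 are shown because both genes lay below Medium in all 4 extreme libraries and hold such a run. They run from 250 bases before to 50 after the annotated start, from RefSeq on GRCm38.p6, at chr7:109518945-109519244 (plus strand) and chr3:90213599-90213898 (minus strand). Capitals mark the run of at least 8 C or T letters that lies from 20 bases before to 30 after the start.
Rpl27a: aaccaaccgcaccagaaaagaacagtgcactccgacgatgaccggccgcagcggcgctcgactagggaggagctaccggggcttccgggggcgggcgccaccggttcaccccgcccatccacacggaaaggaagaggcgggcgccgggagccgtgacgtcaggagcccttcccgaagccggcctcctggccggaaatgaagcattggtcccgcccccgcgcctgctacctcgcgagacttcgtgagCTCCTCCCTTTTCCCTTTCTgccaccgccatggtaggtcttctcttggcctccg
Rps27: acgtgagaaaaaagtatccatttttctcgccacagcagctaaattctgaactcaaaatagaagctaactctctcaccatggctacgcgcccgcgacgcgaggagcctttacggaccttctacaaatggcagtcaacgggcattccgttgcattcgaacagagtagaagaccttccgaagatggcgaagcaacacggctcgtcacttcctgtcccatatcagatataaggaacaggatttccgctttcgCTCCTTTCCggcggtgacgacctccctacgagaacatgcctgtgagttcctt
Of 56 ribosomal protein genes with a promoter in this set (of 76), 29 (51.8%) held such a run in that window, against 2033 of 11007 tested genes (18.5%). A match is a description of the letters only. Rpl27a had 67.1 and 67.5 CPM in Small, 121 and 111 in Medium, and 97.5 and 81.5 in Large, a difference of -0.58 (SE 0.16). Rps27, chosen after its values were seen, had 203 and 231 CPM in Small, 307 and 390 in Medium, and 238 and 249 in Large, a difference of -0.60 (SE 0.18). Rps27rt, a retrogene of Rps27, had 39.4 and 35.1 CPM in Small, 73.0 and 65.6 in Medium and 34.4 and 43.1 in Large (-0.87, SE 0.21). Reads of Rps27 and Rps27rt can be shared.

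**Figure D3:**
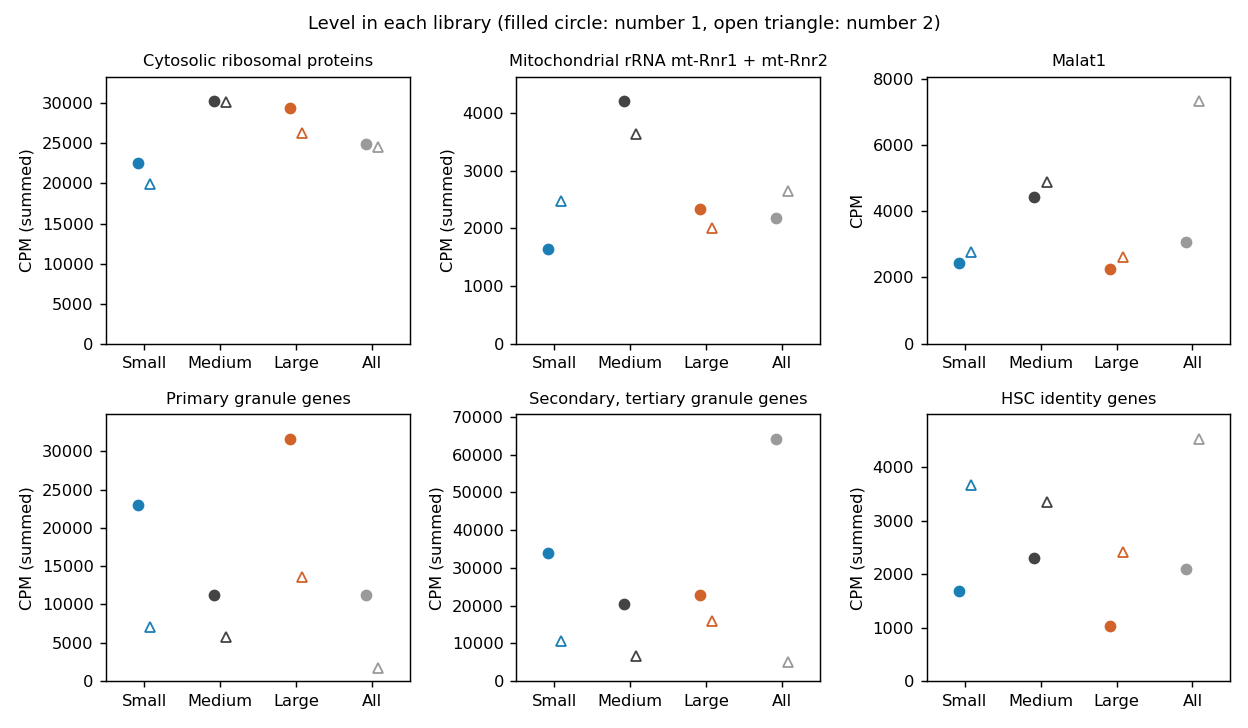
CPM (y axis, from 0) of 5 gene groups, summed, and of Malat1, in each library by group (x axis), with filled circles for number 1 and open triangles for number 2. Ribosomal protein, mitochondrial rRNA and Malat1 levels are highest in the 2 Medium libraries among the 6 size-sorted ones, while in every group granule levels are higher in number 1 and HSC identity levels higher in number 2.

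Transcripts of the mitochondrial genome, which encode core subunits of the respiratory chain, were also lower at both extremes in part. Of 13 mitochondrially encoded protein genes, 7 were below Medium in both numbers, against 16.3% of all genes, and none above. In 6 (46.2%, against 8.08% of all genes) all 4 extreme libraries were below both Medium libraries. The median difference was -0.52, and the 4 within-number medians were -0.99 in Small 1, -0.44 in Large 1, -0.21 in Small 2 and -0.38 in Large 2. Their summed CPM was 6410 and 10341 in Small, 11496 and 9961 in Medium and 9123 and 7956 in Large. By the sum, Small 2 was thus above Medium 2. The count with no overlap was 10 of 13 without Medium 2 (17.3% of all genes). mt-Co3, a subunit of cytochrome oxidase, had 52.1 and 163 CPM in Small, 330 and 279 in Medium and 161 and 52.3 in Large, a difference of -1.51 (SE 0.59). mt-Nd4, a subunit of complex I, had 150 and 250 CPM in Small, 476 and 321 in Medium and 303 and 228 in Large, a difference of -0.79 (SE 0.27). Both genes had no overlap between extremes and Medium. The most abundant of these transcripts, mt-Co1, did not share the pattern: it had 1674 and 3097 CPM in Small, 2757 and 3027 in Medium and 2200 and 2451 in Large.

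Ribosomal RNA counts moved the same way. The 2 mitochondrial rRNA genes were among the 12 lower genes picked by the naming rule. mt-Rnr1, the small rRNA, had 294 and 427 CPM in Small, 893 and 707 in Medium, 466 and 275 in Large, with 364 and 416 in All, a difference of -1.13 (SE 0.26). mt-Rnr2, the large rRNA, had 1347 and 2040 CPM in Small, 3311 and 2937 in Medium, and 1868 and 1730 in Large, a difference of -0.84 (SE 0.21). Medium was above every Small, Large and All library in both. An annotated cytosolic rRNA copy, CT010467.1, had 992 and 677 CPM in Small, 1225 and 1291 in Medium and 778 and 710 in Large. Malat1, a long noncoding RNA of the nucleus on chr19:5795690-5802672, had 2429 and 2779 CPM in Small, 4414 and 4883 in Medium, 2261 and 2612 in Large, with 3055 and 7317 in All. The difference was -0.88 (SE 0.32), and Malat1 and CT010467.1 were chosen after their values were seen. Lars2, the mitochondrial leucyl-tRNA synthetase, chosen in the same way, had 167 and 164 CPM in Small, 481 and 457 in Medium and 274 and 204 in Large (-1.24, SE 0.34). In Lars2, as in Malat1, the 4 extreme libraries were below both Medium libraries, while All 2 was above them.

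The 12 lower genes of the naming rule, those with the smallest unadjusted p among genes without overlap, had differences from -0.55 to -1.62. The longest annotated transcripts of Usp34, Prrc2c, Bicd1, Atrx, Ccdc88a, Rock1 and Arid4b have 5864 to 12200 bases. Those of the other members have 374 to 1582 bases, and the median of all tested genes is 3015. The part of length in these differences was not tested. Usp34, a deubiquitinase (chr11:23306895-23490560), had 9.34 and 7.64 CPM in Small, 46.9 and 32.2 in Medium, 29.0 and 18.4 in Large, with 27.4 and 25.9 in All. Its difference was -1.48 (SE 0.29), with Large between Small and Medium. Atrx, a chromatin remodeler that deposits histone H3.3, had 25.7 and 21.1 CPM in Small, 111 and 90.0 in Medium, 63.5 and 47.0 in Large, with 53.4 and 113 in All (-1.48, SE 0.31). Rock1, a kinase of actomyosin contraction, had 9.79 and 10.3 CPM in Small, 43.6 and 33.6 in Medium and 25.1 and 21.3 in Large (-1.34, SE 0.29). In these 3 genes both Small libraries were below both Large libraries, which were below both Medium libraries. In edgeR on the 6 size-sorted libraries with the replicate block the adjusted p of Atrx was 0.0310, but over its other alternatives it ran from 0.00038 to 1.00. The adjusted p of Usp34 was 0.0400 in DESeq2 and ran from 5.4e-06 to 1.00 over its other alternatives.

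Arid4b, a chromatin protein of the Sin3 complex, had 8.04 and 15.4 CPM in Small, 50.7 and 38.2 in Medium and 25.5 and 18.5 in Large (-1.47, SE 0.33). Prrc2c had 32.3 and 40.5 CPM in Small, 96.6 and 86.2 in Medium and 63.9 and 59.8 in Large (-0.94, SE 0.23). Ccdc88a, an actin-binding protein, had 3.76 and 3.07 CPM in Small, 24.6 and 13.1 in Medium and 12.5 and 9.27 in Large (-1.62, SE 0.37). Its difference was -0.69 on the deposited log2(TPM + 1) scale. Bicd1, an adaptor of the dynein motor, and Gng11, a G protein gamma subunit, had a different order. Bicd1 had 14.1 and 17.6 CPM in Small, 36.1 and 32.4 in Medium and 16.4 and 15.8 in Large (-1.10, SE 0.27). Gng11 had 23.8 and 25.0 CPM in Small, 47.2 and 39.3 in Medium and 19.0 and 24.4 in Large (-0.91, SE 0.23). For both, Small and Large overlapped each other and lay below Medium. In All, Bicd1 was at 22.1 and 35.6 CPM and Gng11 at 36.9 and 49.9, within or above the Medium range in All 2.

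**Figure D4:**
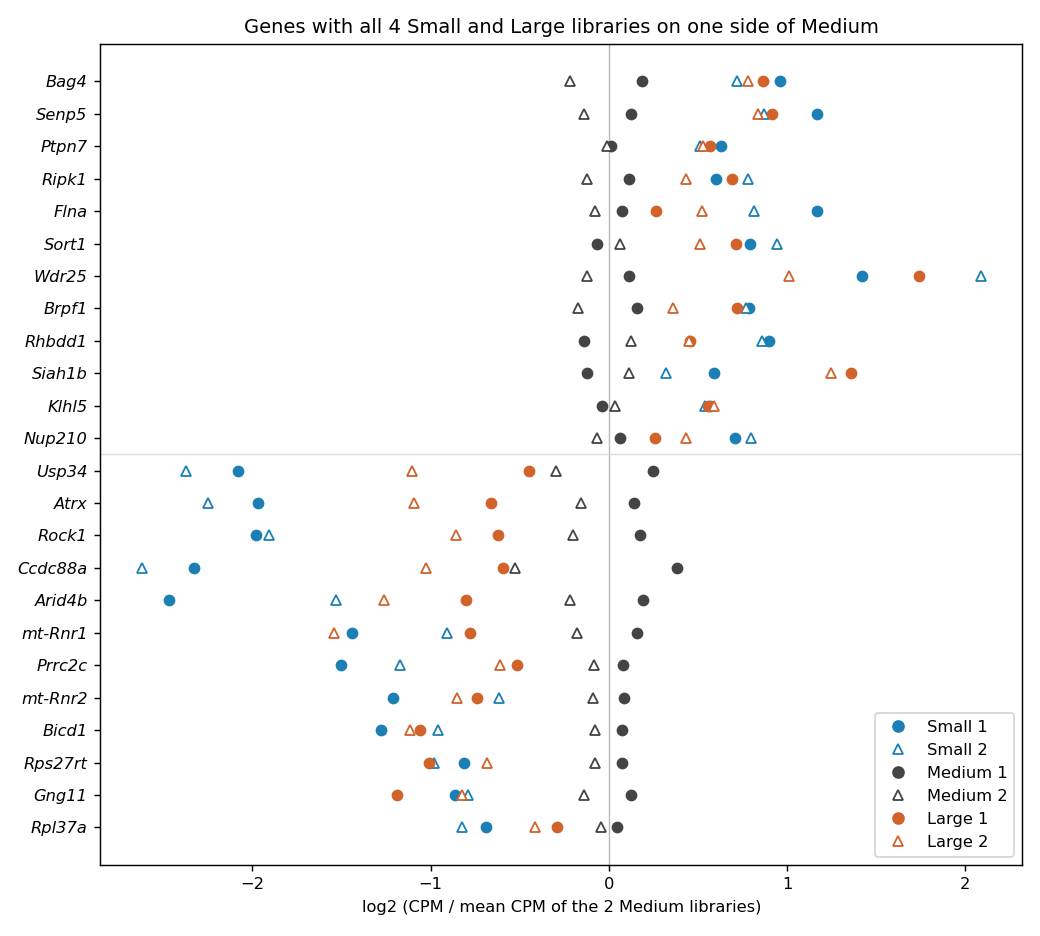
The 12 higher and 12 lower genes of the naming rule (rows), with the log2 ratio of each Small, Medium and Large library to the mean of the 2 Medium libraries (x axis); blue, gray and orange mark the groups, filled circles number 1 and open triangles number 2. The differences reach -1.62 among the lower genes (Ccdc88a) and 1.60 among the higher ones (Wdr25), and Small lies further out than Large for Usp34, Atrx and Rock1.

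The 12 genes higher at both extremes had differences from 0.55 to 1.60. Bag4, a cochaperone of Hsp70 that also silences the TNF receptor (chr8:25764538-25785287), had 64.8 and 54.8 CPM in Small, 38.0 and 28.7 in Medium, 60.8 and 57.2 in Large, with 47.6 and 43.8 in All. The difference was 0.83 (SE 0.21), and Small and Large overlapped each other above Medium. Ripk1, a kinase downstream of the TNF receptor, had 108 and 122 CPM in Small, 76.9 and 65.4 in Medium and 115 and 95.9 in Large (0.63, SE 0.18). Senp5, a protease of SUMO, had 25.9 and 21.1 CPM in Small, 12.6 and 10.5 in Medium and 21.8 and 20.6 in Large (0.95, SE 0.26). Each of these genes was near one level at both extremes. Ptpn7, a phosphatase of blood cells, had 256 and 236 CPM in Small, 167 and 164 in Medium and 245 and 239 in Large (0.56, SE 0.16). Klhl5 was equally even, with 64.5 and 63.3 CPM in Small, 42.4 and 44.6 in Medium and 64.0 and 65.4 in Large (0.56, SE 0.17).

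Among the other members, some leaned to 1 extreme. Flna, a crosslinker of actin filaments, had 1052 and 823 CPM in Small, 492 and 444 in Medium and 562 and 672 in Large (0.70, SE 0.20), so that it was highest in Small. Nup210, of the nuclear pore, had 465 and 496 CPM in Small, 298 and 272 in Medium and 341 and 385 in Large (0.55, SE 0.17). Siah1b, a ubiquitin ligase, had 31.4 and 26.1 CPM in Small, 19.2 and 22.6 in Medium and 53.5 and 49.5 in Large (0.88, SE 0.26), and was highest in Large. Sort1, a sorting receptor of the Golgi, had 129 and 143 CPM in Small, 71.0 and 77.8 in Medium and 122 and 106 in Large (0.74, SE 0.21). Brpf1, a scaffold of a histone acetyltransferase, had 83.9 and 83.0 CPM in Small, 54.3 and 43.1 in Medium and 80.1 and 62.4 in Large (0.66, SE 0.20). Rhbdd1, an intramembrane protease, had 67.7 and 65.8 CPM in Small, 33.0 and 39.6 in Medium and 49.8 and 49.5 in Large. Wdr25, of low level, had 6.81 and 10.8 CPM in Small, 2.75 and 2.34 in Medium and 8.51 and 5.13 in Large (1.60, SE 0.48), so that Small and Large overlapped. The All libraries were at 7.31 and 9.96 CPM for Wdr25 and at 120 and 82.3 for Sort1, above both Medium libraries in each case.

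Granule genes of the neutrophil lineage were higher at both extremes than in Medium within each number, but the 2 sets of libraries overlapped. Primary granule genes are made early in granulocyte development. Of 10 tested members, 8 were on the higher side in both numbers, against 14.8% of all genes, and none on the lower side. The median difference was 0.94, with 0.66 in Small 1, 1.43 in Large 1, 0.14 in Small 2 and 1.15 in Large 2. With 1 library left out it ran from 0.45 without Small 1 to 1.51 without Medium 1. Their summed CPM was 22984 and 7050 in Small, 11235 and 5731 in Medium, 31662 and 13618 in Large, with 11200 and 1693 in All. No member had all 4 extreme libraries above both Medium libraries (6.36% of all genes), and in 9 of 10 Small 2 was below Medium 1. Without Small 2 the count was 9 of 10 (13.6% of all genes), and without Medium 1 it was 8 (20.2%).

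Mpo, myeloperoxidase, had 13617 and 3462 CPM in Small, 5516 and 2404 in Medium, 16527 and 7201 in Large, with 5276 and 132 in All. Large was above Small and Medium in each number, and the difference of 1.35 was about as large as its error (SE 1.28). It was 0.70 without Small 1 and 2.07 without Medium 1. Elane, neutrophil elastase, had 3934 and 1081 CPM in Small, 2117 and 935 in Medium and 6329 and 2502 in Large (1.12, SE 1.23). Calr, a chaperone of the endoplasmic reticulum that binds myeloperoxidase as it matures, had 1261 and 770 CPM in Small, 879 and 704 in Medium and 1629 and 907 in Large (0.52, SE 0.31).

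Secondary and tertiary granule genes are made later. Of 19 tested members, 13 were on the higher side in both numbers, against 14.8% of all genes, and none on the lower. The median difference was 0.67, with 0.89 in Small 1, 0.23 in Large 1, 0.53 in Small 2 and 1.3 in Large 2. No member had all extreme libraries above both Medium libraries, but 14 did without Medium 1 (20.2% of all genes) and 4 without Small 2 (13.6%). The median was 0.08 without Medium 2 and 1.77 without Medium 1. Ltf, lactoferrin, had 2920 and 882 CPM in Small, 1249 and 356 in Medium, 1764 and 1257 in Large, with 4929 and 375 in All (1.08, SE 1.03). Ngp, a granule protein, had 8306 and 2562 CPM in Small, 4373 and 1203 in Medium and 5883 and 3875 in Large, and 17007 in All 1 (0.89, SE 1.08). The levels of these genes in All 1 were above every size-sorted library, and those of Mpo were not. Granule genes are not genes that define HSCs, and the part of other cells in their levels was not tested.

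The promoters of Mpo and Ltf are shown because both genes were above Medium at both extremes in both numbers and hold letters that myeloid factors are known to bind. They are from RefSeq on GRCm38.p6, from 250 bases before to 50 after the start, at chr11:87793534-87793833 and chr9:111019042-111019341, both on the plus strand. Capitals mark GAGGAAGT, the letters searched for PU.1, in Mpo, and TTNCNNAA or its reverse complement, the letters searched for C/EBP factors, in Ltf.
Mpo: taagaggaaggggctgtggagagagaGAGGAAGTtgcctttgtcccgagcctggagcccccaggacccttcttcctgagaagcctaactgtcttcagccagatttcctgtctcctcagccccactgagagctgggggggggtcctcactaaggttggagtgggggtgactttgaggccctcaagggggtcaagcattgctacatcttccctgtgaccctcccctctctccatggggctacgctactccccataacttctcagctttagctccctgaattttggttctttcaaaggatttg
Ltf: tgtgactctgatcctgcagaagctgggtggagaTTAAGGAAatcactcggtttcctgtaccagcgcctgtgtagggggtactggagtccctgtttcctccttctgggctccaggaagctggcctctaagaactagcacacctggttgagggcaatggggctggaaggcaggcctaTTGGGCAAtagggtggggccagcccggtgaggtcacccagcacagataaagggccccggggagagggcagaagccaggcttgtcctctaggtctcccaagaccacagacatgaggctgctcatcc
Both strands were searched, and overlaps between the 2 sets of letters were not removed. Of 25 granule genes with a promoter in this set (of 29), 8 (32%) held the PU.1 letters, against 369 of 11007 tested genes (3.35%). The C/EBP letters were in 15 (60%), against 3595 of all (32.7%). Among the 56 ribosomal protein promoters these letters were in 2 (3.57%) and 17 (30.4%). A promoter with no match lacks only these letters in this window.

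Genes of the cell cycle lay above Medium mainly in Large. Of 30 G1/S phase genes, 9 were on the higher side at both extremes in both numbers and none on the lower, against 14.8% and 16.3% of all genes, with a median difference of 0.41. Within number 1 the median was 0.05 in Small and 0.61 in Large, and within number 2 it was -0.09 in Small and 1.13 in Large. No member had all 4 extreme libraries above both Medium libraries, but 16 did without Small 2 (13.6% of all genes) and 13 without Medium 1 (20.2%). Mcm3, a subunit of the replicative helicase, had 509 and 367 CPM in Small, 460 and 339 in Medium and 651 and 651 in Large (0.42, SE 0.24). Of 24 G2/M phase genes, 8 were on the higher side and none on the lower, with a median of 0.57. None had all 4 extreme libraries above both Medium libraries, but 13 did without Small 2 and 8 without Medium 1. Bub1b, of the spindle checkpoint, had 194 and 82.2 CPM in Small, 144 and 58.3 in Medium and 288 and 206 in Large (0.87, SE 0.59). The within-number G2/M medians were 0.27 and -0.09 in Small and 0.68 and 1.25 in Large. The G2/M median ran from 0.07 without Small 1 to 1.31 without Medium 1, and the G1/S median from 0.02 without Medium 2 to 0.89 without Medium 1.

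HSC identity genes, the transcription factors and surface proteins by which HSCs are recognised, were lower at both extremes in part. Of 30 genes, 9 were below Medium at both extremes in both numbers, against 16.3% of all genes, and none above. In 7 (23.3%, against 8.08% of all genes) all 4 extreme libraries were below both Medium libraries. The median difference was -0.56 (-0.72 with the replicate block). It was larger in number 1, at -0.85 in Small and -1.48 in Large, than in number 2, at 0.02 and -0.49. Summed CPM was 1676 and 3664 in Small, 2297 and 3362 in Medium and 1027 and 2410 in Large, so that Small 2 was above both Medium libraries. The count with no overlap was 12 without Small 2 (12.9% of all genes) and 14 without Medium 2 (17.3%), and the median was -0.29 without Large 1 and -0.94 without Small 2.

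Sult1a1, a sulfotransferase used as an HSC marker, had 21.8 and 27.3 CPM in Small, 49.3 and 40.5 in Medium, 6.50 and 18.7 in Large, with 26.4 and 53 in All (-1.35, SE 0.45). Pdzk1ip1, a membrane protein enriched in HSCs, had 53.4 and 94.2 CPM in Small, 130 and 130 in Medium and 31.5 and 64.6 in Large (-1.12, SE 0.41). Mllt3, a chromatin reader that maintains HSCs, had 31.2 and 52.2 CPM in Small, 63.5 and 56.2 in Medium and 23.2 and 33.2 in Large (-0.80, SE 0.32). Hoxb5, a homeobox factor of long-term HSCs, had 1.36 and 3.0 CPM in Small, 4.44 and 5.97 in Medium and 0.929 and 2.83 in Large. In each of these genes both Medium libraries were above all 4 extreme ones. Granule genes were higher where HSC identity genes were lower, in the number 1 libraries, and the part of this in the differences from Medium was not tested.

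Of the 4 sort antigens, only Ly6a (Sca-1) had Small and Large on the same side in both numbers. It had 45.7 and 288 CPM in Small, 90.4 and 366 in Medium and 20.4 and 186 in Large (-0.80, SE 1.12; -1.11 with the replicate block). Kit (CD117) had 852 and 1196 CPM in Small, 662 and 841 in Medium and 513 and 699 in Large, lower at each larger size in both numbers. Slamf1 (CD150) had 10.8 and 8.71 CPM in Small, 22.1 and 8.74 in Medium and 7.58 and 11.4 in Large. Cd48 had 136 and 62.7 CPM in Small, 76.8 and 66.1 in Medium, 159 and 105 in Large, with 67.4 and 12.0 in All. Procr (EPCR) had 30.3 and 145 CPM in Small, 39.1 and 124 in Medium and 5.29 and 60.4 in Large. Cd34 had 325 and 1276 CPM in Small, 314 and 1128 in Medium and 333 and 908 in Large. Flt3, of multipotent progenitors, had 62.8 and 763 CPM in Small, 47.8 and 678 in Medium and 27.8 and 497 in Large. For Procr, Cd34, Flt3 and Ly6a each of the 3 size-sorted libraries numbered 2 was above all 3 numbered 1.

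Endothelial and stromal genes are markers of the marrow niche. Of 17 tested members, 10 were below Medium at both extremes in both numbers, against 16.3% of all genes, and none above. In 7 (41.2%, against 8.08% of all genes) all 4 extreme libraries were below both Medium libraries, and in 12 without Medium 2 (17.3% of all genes). The median difference was -0.89, with -0.64 in Small 1, -1.42 in Large 1, -0.85 in Small 2 and -0.71 in Large 2. Their summed level was low: 235 and 229 CPM in Small, 264 and 299 in Medium, 152 and 226 in Large, with 140 and 182 in All. Only 8 of the 17 had at least 5 CPM on average. Among all tested genes, 19.7% of the lowest decile by level were lower at both extremes and 8.59% of the highest. The share of all genes is therefore not matched to this list by level. Sparc, a matrix protein, had 17 and 6.28 CPM in Small, 24.3 and 29.6 in Medium and 9.01 and 16.6 in Large. Fabp4, a fatty acid carrier of adipocytes and endothelium, had 5.38 and 5.07 CPM in Small, 16.9 and 27.8 in Medium and 4.86 and 13.2 in Large. Pecam1, an adhesion protein of endothelium and the most abundant of the list, did not share the pattern, at 61.1 and 94.8 CPM in Small, 37.9 and 81.1 in Medium and 47.2 and 67.8 in Large (0.17, SE 0.43).

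Genes of protein folding, sugar breakdown and lysosomes had more members on the higher than on the lower side, with small differences. Of all tested genes, 14.8% were on the higher side and 16.3% on the lower. In the highest decile by mean CPM these shares were 28.4% and 8.59%. The shares of all genes are therefore not matched to these lists by level. Of 22 integrated stress and unfolded protein response genes, 9 were on the higher side and 1 on the lower, with a median of 0.23 that was 0.08 without Small 1. In 3 (13.6%, against 6.36% of all genes) all 4 extreme libraries were above both Medium libraries, and in 8 without Small 2 (13.6% of all genes). Hspa5, the main chaperone of the endoplasmic reticulum, had 2050 and 1732 CPM in Small, 1638 and 1639 in Medium and 2574 and 1937 in Large (0.33, SE 0.18). Of 19 glycolysis genes, 5 were higher and 1 lower, with a median of 0.11 that was -0.00 without TMM scaling. Gpi1, glucose phosphate isomerase, had 743 and 551 CPM in Small, 518 and 454 in Medium and 926 and 631 in Large (0.55, SE 0.29). Of 22 lysosome and autophagy genes, 6 were higher and 1 lower, with a median of 0.15 that was -0.06 without Medium 1. Pmaip1 (Noxa), a p53 target that promotes cell death, had 81.2 and 77.8 CPM in Small, 52.7 and 70.7 in Medium and 97.5 and 105 in Large (0.54, SE 0.20).

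Of 32 interferon response genes, 9 were lower at both extremes and none higher, against 16.3% and 14.8% of all genes. The count lower was 14 without TMM scaling (20.8% of all genes). Only in 2 (6.25%, against 8.08% of all genes) were all 4 extreme libraries below both Medium libraries. The median of the list was -0.26 and turned to 0.12 without Medium 2. Gbp7, a guanylate-binding protein, had 22 and 42.3 CPM in Small, 56.5 and 70.3 in Medium and 35.0 and 44.8 in Large (-0.82, SE 0.41). Nuclear-encoded genes of oxidative phosphorylation had 2 members higher and 2 lower of 54, with a median of -0.02, and so did not share the side of the mitochondrially encoded genes. Ribosome biogenesis factors had 4 higher and none lower of 28, with a median of 0.08 that turned to -0.10 without Medium 2 and to -0.03 without TMM scaling. Without that scaling 2 were higher and 2 lower, and on the log2(TPM + 1) scale 9 were higher and 2 lower. Mybbp1a, a nucleolar protein, had 277 and 321 CPM in Small, 213 and 221 in Medium and 291 and 276 in Large (0.43, SE 0.15).

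**Figure D5:**
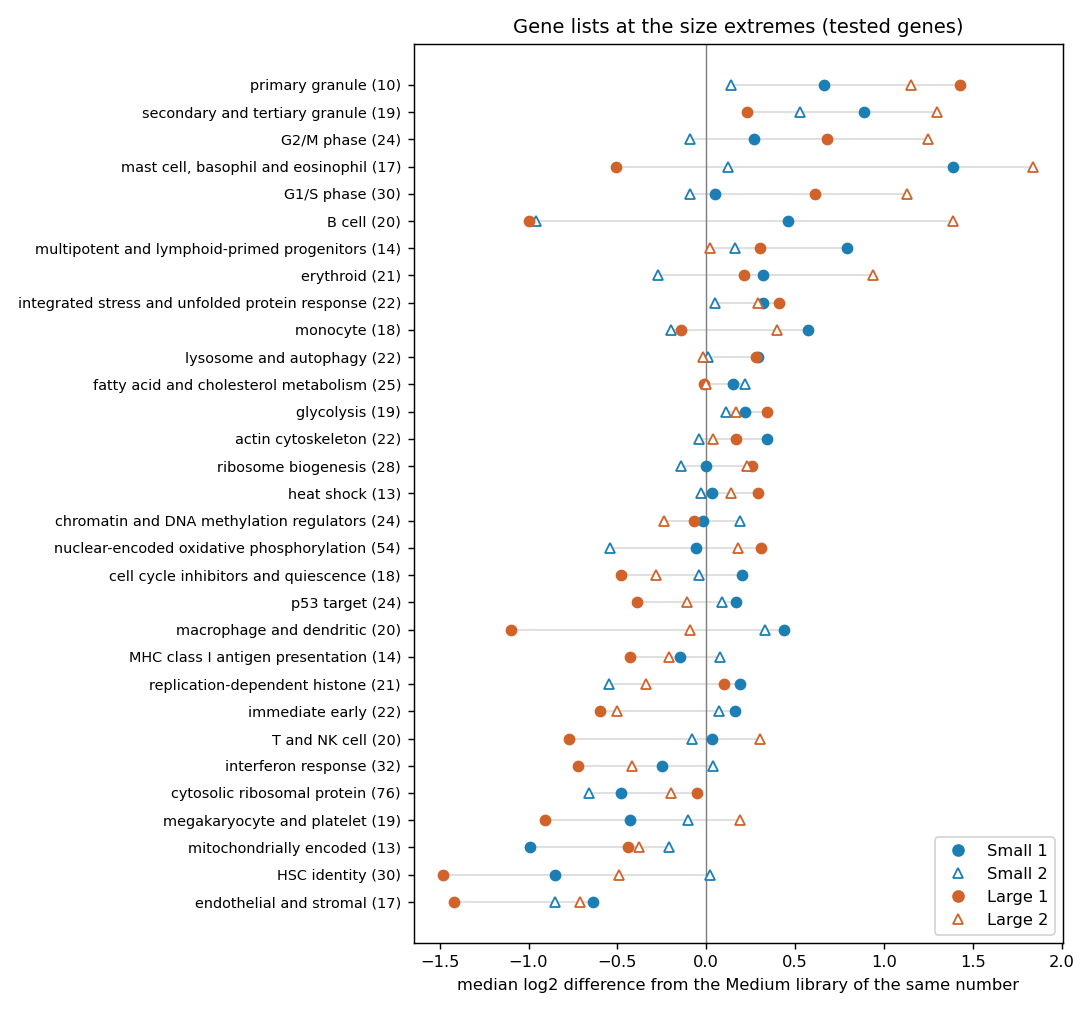
For each gene list (rows, tested genes in brackets), the median log2 difference of Small 1, Small 2, Large 1 and Large 2 from the Medium library of the same number (x axis). All 4 values are on one side of 0 for the granule, ribosomal protein, mitochondrially encoded and endothelial and stromal lists, as for glycolysis and the unfolded protein response, and they straddle 0 for B cell and for macrophage and dendritic genes.

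At the edge of the rule, Prpsap1 was just inside, with 155 and 164 CPM in Small, 129 and 151 in Medium and 150 and 151 in Large, and a smallest within-number difference of 0.00 after rounding. Ighv1-80, an immunoglobulin segment, was just outside, at 32.3 and 0 CPM in Small, 0 and 0 in Medium, and 0.0715 and 0.263 in Large, because Small 2 and Medium 2 were both at 0.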

How the data were processed

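Sample titles give the groups and the replicate numbers. Per the submitters' processing notes, the authors used STAR 2.5.3a, RSEM 1.3.0, SAMtools 1.3 and build mm10. Not given in the sources used here are the annotation release and the use of strand in counting. Deposited by the authors were estimated counts per gene, already whole numbers, and log2(TPM + 1) values. Of 50686 gene IDs, 50462 matched a symbol of GENCODE M21 on GRCm38, and those unmatched took up to 0.036% of counts in any library.

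Counts were tested with edgeR 4.0.16 (R 4.3.3): TMM, filterByExpr with a minimum count of 10, robust quasi-likelihood fit of group over 8 libraries (4 residual degrees of freedom), Benjamini-Hochberg adjustment, threshold 0.05. The within-number differences used log2 CPM with a prior count of 2. Same-numbered libraries deviated together (correlations of deviations from group means 0.36 to 0.44), so the numbers were treated as pairing the samples in an alternative with a replicate block. The procedure was tested on simulated data. Other alternatives were limma 3.58.1, DESeq2 1.42.0, other scalings and filters, and each library left out.

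Genes were named by a rule: up to 12 genes per direction with at least 5 CPM, usable symbols and no overlap between extremes and Medium, by unadjusted p; list members with the smallest p and the most abundant member; the sort antigens; and 1 gene on each side of the rule's edge. The members and the 31 gene lists (726 genes, 707 tested) were chosen with earlier results of these data known. PD and rapamycin samples named by the series were not analysed here. Some genes that the rule picks are not reported here.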

Additional observations from a re-analysis of the deposited data

How the results depend on the processing

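No gene passed the adjusted threshold in edgeR with the replicate block (0, smallest adjusted p 0.248; 2082 genes with an unadjusted p under 0.05 in place of 559), with RLE scaling, at 5 CPM or more, in limma-voom with or without the block, in limma-trend on log2(TPM + 1), or with any 1 of the 8 libraries left out. Counts above 0 came from the 6 size-sorted libraries with the block (4, all lower: Atrx, Lars2, Gm26377 and Malat1), from no filter on low counts (73), from DESeq2 (8) and from DESeq2 with the block (478, 246 higher and 232 lower); why the tools differ was not tested. With 1 library left out, genes with an unadjusted p under 0.05 ran from 313 without Large 1 to 754 without Small 2. Same-side counts were 236 and 587 with a margin of 0.5, 1021 and 1298 with no overlap, and 1465 lower at 5 CPM or more (2034 higher). With 1 library left out, Slamf1 ran from -1.23 to 0.14, Ly6a from -1.96 to 0.51, Kit from -0.09 to 0.23, Procr from -1.92 to 0.43, Cd34 from -0.68 to 1.14, Flt3 from -1.76 to 2.76 and Pecam1 from -0.27 to 0.80; Cd34 was 0.00 in the edgeR, 6-library and DESeq2 fits with the replicate block. With GC content and length trends removed from the blocked fit, an alternative chosen after seeing the data, the ribosomal protein median was -0.24. Precision is limited by 2 libraries a group; the value of 3 counts reflects counting error alone, as reads copied by PCR are not separate molecules.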

Other observations

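Most lists of mature blood cells gave within-number medians on both sides of Medium. Of all tested genes, 14.8% were higher at both extremes in both numbers and 16.3% lower, and the counts of members here stand beside those shares. Those shares are not matched to the lists by level. B cell genes had medians within number of 0.46 in Small 1, -1.0 in Large 1, -0.96 in Small 2 and 1.39 in Large 2, so the sign differed between the libraries of 1 size. Mast cell, basophil and eosinophil genes had 1.39, -0.51, 0.12 and 1.84 in the same order, with 2 of 17 tested members higher at both extremes in both numbers. Hdc, histidine decarboxylase of basophils and mast cells, had 292 and 69.0 CPM in Small, 119 and 63.4 in Medium and 248 and 150 in Large. Erythroid genes had 5 of 21 members higher and 1 lower, and T and NK cell genes 2 higher and 1 lower of 20. Megakaryocyte and platelet genes had 2 of 19 lower and none higher. T and NK cell genes on either side, and megakaryocyte genes lower, were under the shares of all genes. Nrgn, a platelet gene, had 18.2 and 23.7 CPM in Small, 34.1 and 30.0 in Medium and 14.7 and 24.1 in Large.

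Monocyte genes had 4 of 18 members higher and 3 lower. Csf1r, the receptor for macrophage colony-stimulating factor, had 121 and 55.7 CPM in Small, 39.9 and 30.0 in Medium, 61.8 and 67.3 in Large, with 43.5 and 18.6 in All, so that all 4 extreme libraries were above both Medium libraries (1.11, SE 0.45). Irf8, a factor of monocytes and dendritic cells, had 146 and 56.8 CPM in Small, 54.2 and 55.4 in Medium and 108 and 118 in Large. Macrophage and dendritic genes had 3 of 20 higher and 3 lower: Vcam1 had 117 and 74.5 CPM in Small, 66.0 and 21.1 in Medium and 118 and 68.9 in Large, while Cd209a had 4.28 and 1.36 in Small, 12.3 and 9.18 in Medium and 3.43 and 6.05 in Large. Multipotent and lymphoid-primed progenitor genes had 3 of 14 higher and none lower. Their medians were above 0 in all 4 extreme libraries (0.79 in Small 1, 0.30 in Large 1, 0.16 in Small 2 and 0.02 in Large 2). The fitted median of 0.25 changed sign with 1 library left out, from -0.56 without Medium 1 to 1.16 without Medium 2.

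Chromatin and DNA methylation regulators were divided, with 5 of 24 higher and 6 lower. Dnmt1, which copies DNA methylation at replication, had 332 and 236 CPM in Small, 262 and 200 in Medium and 357 and 428 in Large, while Kmt2c, a histone H3 lysine methyltransferase, had 32.5 and 58.0 in Small, 69.9 and 94.8 in Medium and 55.8 and 52.7 in Large. Cell cycle inhibitor and quiescence genes had 1 of 18 higher and 6 lower. Gfi1, a repressor that restrains HSC proliferation and acts in granulocytes, was the higher one, at 49.7 and 46.1 CPM in Small, 29.0 and 37.1 in Medium and 63.5 and 58.9 in Large. Klf6 was among the lower ones, at 447 and 718 CPM in Small, 501 and 854 in Medium and 328 and 551 in Large. Its difference was -0.42, and -0.01 without Medium 2. Actin cytoskeleton genes had 5 of 22 higher and 1 lower, fatty acid and cholesterol genes 5 of 25 higher and none lower, heat shock genes 3 of 13 higher and none lower, and p53 targets 3 of 24 higher and 3 lower. Immediate early genes had 3 of 22 lower and none higher, MHC class I genes 3 of 14 lower and none higher, and replication-dependent histone genes 2 of 21 lower and none higher. The p53 targets on both sides, and the immediate early and histone genes lower, were under the shares of all genes, 14.8% higher and 16.3% lower.

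Genes outside the naming rule, chosen after their values were seen because DESeq2 with the replicate block gave them the 3 smallest adjusted p-values among the higher genes, were Chdh, Cad and Olfm4. Chdh, choline dehydrogenase of mitochondria, had 33.4 and 13.1 CPM in Small, 8.57 and 3.33 in Medium, 36.8 and 17.2 in Large, with 15.3 and 4.28 in All. Cad, which starts pyrimidine synthesis, had 142 and 112 CPM in Small, 88.4 and 57.9 in Medium and 144 and 109 in Large. Olfm4, a glycoprotein of neutrophil granules, had 31.8 and 9.50 CPM in Small, 3.94 and 1.60 in Medium and 17.7 and 7.17 in Large. All 4 extreme libraries were above both Medium libraries in each of the 3 genes. Gm26377, an annotated miRNA gene among the lower ones, had 3.82 and 1.71 CPM in Small, 40.0 and 37.6 in Medium, 11.9 and 6.44 in Large, with 9.47 and 34.6 in All.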
